A study of Gallus gallus with 12 samples.

Results

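The genes described here encode the membrane carriers for inorganic ions and metals that were named on the array: sodium-calcium exchangers (families SLC8 and SLC24), sodium-proton exchangers (SLC9), cation-chloride cotransporters (SLC12), carriers of sulphate, carboxylates and other anions (SLC13 and SLC26), phosphate carriers (SLC20 and SLC34), zinc exporters (SLC30) and importers of zinc and other metals (SLC39). Within these 10 families they were taken by symbol alone, every symbol being included and the brightest feature standing for a symbol. The choice of carriers was made with earlier results of these data known. This gave 53 genes out of 18407 symbols and 37374 features. For 6 of them several features were present (61 features in all). SLC24A6 is called SLC8B1 in the current gene table.

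Messenger RNA came from the utero-vaginal junction (UVJ) of White Leghorn hens, where sperm are stored in tubules between the shell gland and the vagina. Of the 12 hens, 4 had been paired with a male of the same breed (mated), 4 had received sperm-free seminal fluid by infusion into the cloaca (SF) and 4 had been left without mating or insemination (control), and all tissue was taken 24 h later. The study's methods state that each mated hen had her own male and that the fluid came from ejaculates of those males pooled within each male. Controls received no infusion, so that the fluid and the procedure of infusing it cannot be told apart. The groups also occupied separate blocks of positions on a single slide, and position and treatment cannot be told apart either.

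Carriers of these families move ions across membranes by coupling them to the gradient of another ion. In the oviduct of the hen such transport delivers calcium and bicarbonate to the forming eggshell, and in epithelia at large it sets the pH, salt content and zinc content of the luminal fluid. Sperm motility responds to pH, calcium and bicarbonate.

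Levels are log2 intensities, and differences are differences of log2 intensity, each with its standard error (SE) from limma. The median intensity was 1077 to 1102 on all arrays, and the correlation of replicates over the features was 0.940 to 0.990 in mated hens, 0.961 to 0.986 in SF hens and 0.966 to 0.988 in control hens. Array number (4 per group) limits the precision. An array's random-sequence control lay at 3.81 to 3.95. Of the 53 carriers 47 were brighter than it on all 12 arrays. SLC30A10 was brighter on 11, SLC24A1 on 10, SLC13A1 on 9 and SLC13A4 on 3. SLC12A1, known in mammals as the salt cotransporter of the kidney tubule, and SLC39A12 were brighter on 0 arrays, and no fold change is given for them.

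Marker genes of the tissue varied between hens. The score of the eggshell gland markers (mean log2 deviation of 19 measured genes, 18 of them above the random control on all arrays and FGF23 at or below it on all) spanned -0.90 to 0.57 in mated, -1.03 to 0.38 in SF and -0.48 to 1.18 in control hens. The stratified squamous epithelium score (15 genes, all above the control) spanned -0.48 to 0.58 in mated, 0.09 to 0.68 in SF and -0.87 to 0.44 in control hens. In SF-infusion versus control 5 eggshell gland markers were lower and 1 was higher at an unadjusted p under 0.05. In that comparison 5 squamous markers and 4 of 17 ciliated cell markers were higher. Of all features 2.32% were lower and 4.15% higher. Mated replicate 4 had the highest T lymphocyte score, at 1.27, and also the highest macrophage and heterophil (1.30) and B lymphocyte (0.60) scores. In such bulk samples fewer cells of a type and less RNA per cell cannot be told apart. The part these shifts play in the differences below was not tested beyond a fit with both lists as a covariate. That covariate, the squamous score minus the eggshell gland score, is called the tissue score here. It differed between the groups. The eggshell gland score averaged -0.46 in SF and 0.48 in control hens, and the squamous score 0.38 and -0.40. Tissue and treatment therefore cannot be told apart in that fit.

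Few of the carriers differed after either treatment. In mating versus control 1 of 53 passed an unadjusted p of 0.05, SLC26A1, which was lower, where 2.22% of all features passed and 0.867% were lower. In SF-infusion versus control 2 passed, SLC26A8 higher and SLC39A8 lower, where 6.47% of all features passed, 4.15% higher and 2.32% lower. In mating versus SF-infusion 2 passed as well, SLC30A9 and SLC39A8, both higher in mated hens, where 4.7% of all features passed and 2.04% were higher. No carrier passed after Benjamini-Hochberg adjustment in limma, the smallest adjusted p of a carrier being 0.99991, 0.735 and 0.998 in these comparisons, and 0 of all features passed either. With both directions joined, the share of carriers past the unadjusted threshold was thus no higher than that of the whole array. By direction it was higher for carriers lower after mating (1.89%, from 1 carrier). The same held for carriers higher in mated than in SF hens (3.77%, from 2 carriers). It was not higher in the other directions.

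**Figure D1:**
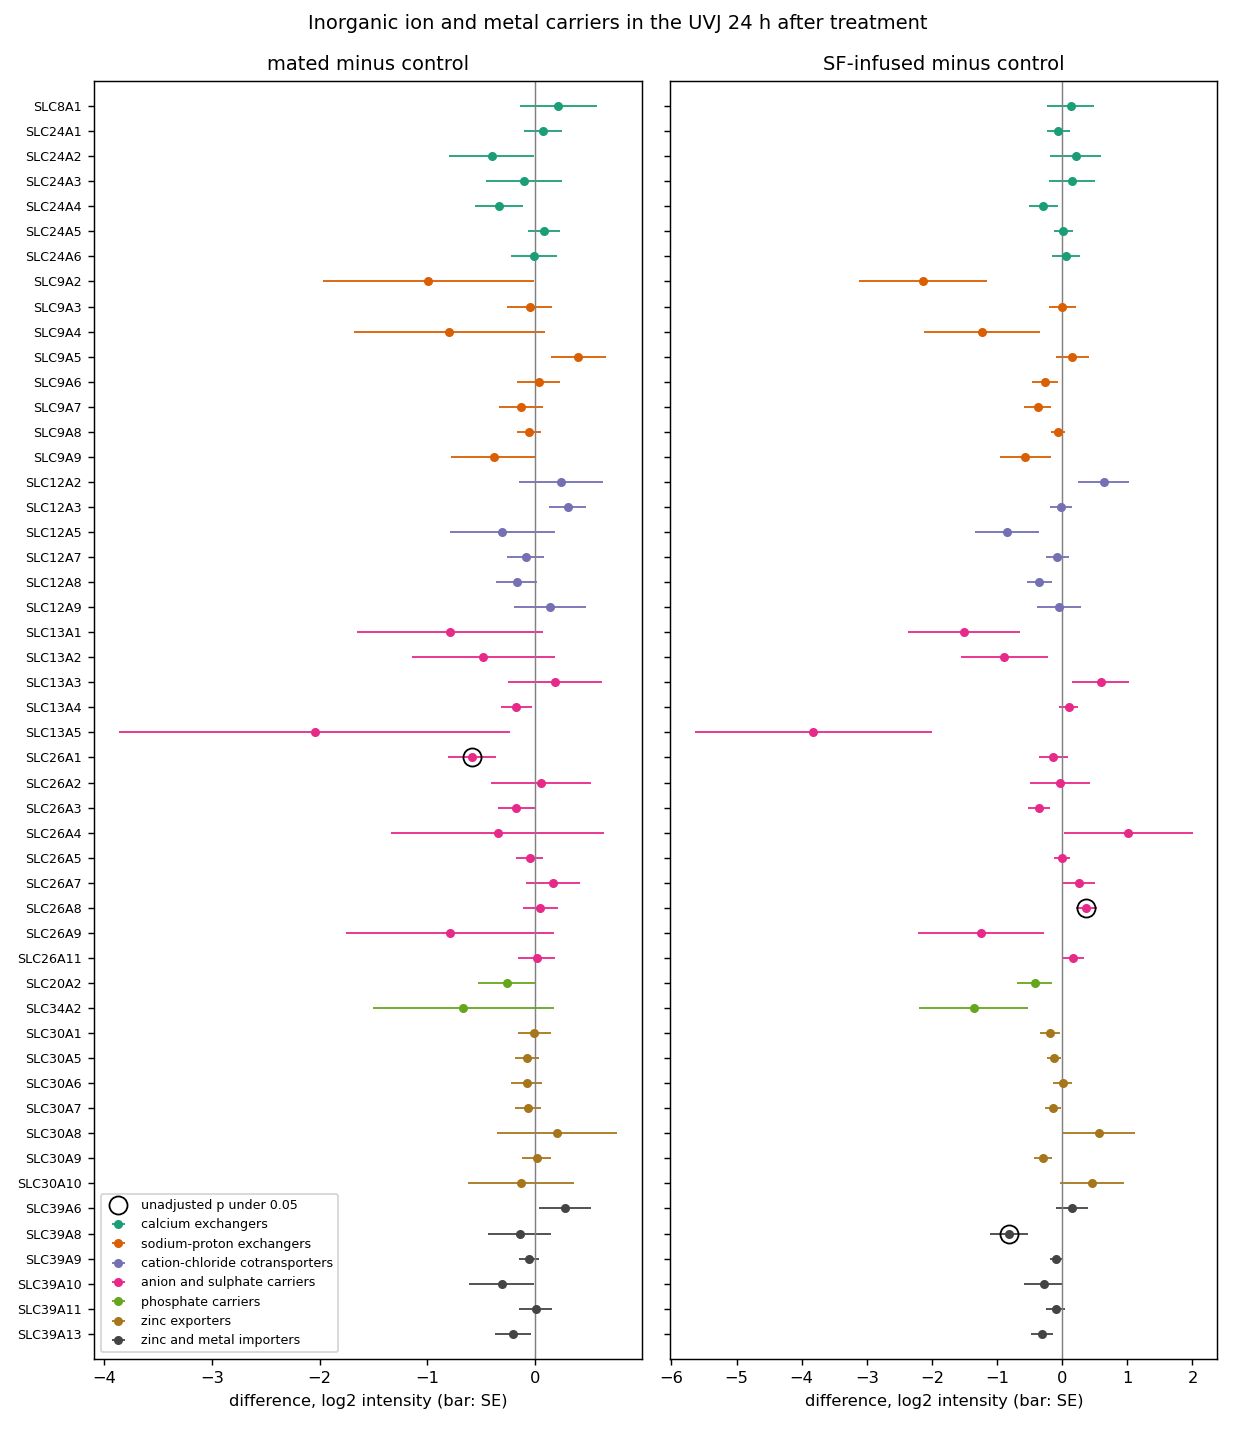
Differences of log2 intensity for 50 carriers above the random control on at least some arrays, mated minus control on the left and SF-infused minus control on the right, with bars for the SE, colours for the role groups and rings around carriers at an unadjusted p under 0.05. Rings mark SLC26A1 on the left and SLC26A8 and SLC39A8 on the right, while the largest differences, those of SLC13A5 and SLC9A2, carry long bars and no ring.

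Among the metal carriers above the random control on all arrays SLC39A8 (ZIP8), which brings zinc and manganese into the cell, differed most after SF-infusion. It lay at 13.58, 12.99, 12.47 and 12.04 in SF hens, against 13.89, 13.47, 13.33 and 13.68 in control hens. SF replicates 2, 3 and 4 were below every control, and only SF replicate 1 lay within the control range. SLC39A8 averaged 12.77 ± 0.66 in SF hens and 13.59 ± 0.24 in control hens (SD, n = 4 each), a difference of -0.82 (SE 0.29, limma unadjusted p = 0.0169), or 0.565 times the control level. The difference stopped passing without SF replicate 4 (-0.58) and passed when any other single array was left out. In mated hens SLC39A8 lay at 13.51, 13.73, 13.56 and 13.01, with 3 of 4 hens inside the control range. Mated hens differed from control hens by -0.14 (SE 0.29) and from SF hens by 0.68 (SE 0.29, limma unadjusted p = 0.0400). That last difference was lost when control replicate 4, mated replicate 1, 2 or 3, or SF replicate 3 or 4 was left out. With exact permutation of the 8 hens SLC39A8 gave p = 0.0857 in SF-infusion versus control and p = 0.171 in mating versus SF-infusion, where 0.0286 is the smallest p that 70 splits allow. With the tissue score in the model both differences of SLC39A8 stopped passing, at -0.70 in SF-infusion versus control and 0.62 in mating versus SF-infusion, and the second also stopped passing in the fit of the 2 groups.

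The 5 other importers of the SLC39 family that were above the random control had differences from control between -0.31 and 0.28 in mated hens and between -0.30 and 0.15 in SF hens, and 0 of them passed. SLC39A9, a zinc carrier of the Golgi, was the steadiest of all 53 carriers, with an SD of 0.099 over the 12 hens.

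Among the carriers of the SLC30 family SLC30A9 was the only one of 7 to pass in any comparison. It lay at 11.10, 10.91, 11.20 and 10.78 in mated hens, against 10.72, 10.61, 10.57 and 10.85 in SF hens. SF replicate 4 was above mated replicate 4, so that the groups overlapped. The difference was 0.31 (SE 0.14, limma unadjusted p = 0.0423, exact permutation p = 0.0571), and it stopped passing when mated replicate 1 or 3, or SF replicate 1, 2 or 3 was left out, or with the tissue score in the model (0.18). Control hens lay at 10.85, 11.10, 11.23 and 10.74, so SLC30A9 in mated hens differed from control by 0.02 (SE 0.14) and in SF hens by -0.29 (SE 0.14, limma unadjusted p = 0.0531). SLC30A1, which exports zinc through the plasma membrane, and SLC30A5, SLC30A6 and SLC30A7, which load it into the secretory pathway, had differences from control of -0.076 to -0.0047 after mating and of -0.19 to 0.009 after SF-infusion. SLC30A8, the zinc carrier of insulin granules in mammals, stood at 8.63 in SF replicate 2 and between 5.57 and 6.72 in the other 11 hens.

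Of the 14 anion and sulphate carriers 2 passed, each in a single comparison. SLC26A1, a sulphate and oxalate exchanger, lay at 4.54, 4.86, 4.62 and 5.32 in mated hens, against 5.80, 5.17, 5.02 and 5.67 in control hens. Mated replicates 1, 2 and 3 were below all controls and mated replicate 4 was within their range. SLC26A1 averaged 4.83 ± 0.35 in mated hens and 5.42 ± 0.38 in control hens (SD, n = 4 each), a difference of -0.58 (SE 0.23, limma unadjusted p = 0.0258, exact permutation p = 0.0857). The call was lost when control replicate 1 or 4 or mated replicate 1 or 3 was left out. Of 11 other settings 10 kept the call on SLC26A1, the tissue score among them, and the exact permutation test did not. The filter on dim features left SLC26A1 out. The signal of SLC26A1 is dim, little above the random control.

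SLC26A8, whose mammalian counterpart is an anion carrier of sperm and their precursors, went the other way. It lay at 9.27, 9.77, 9.42 and 9.67 in SF hens, against 8.81, 9.26, 9.27 and 9.30 in control hens. SF replicates 2, 3 and 4 were above every control. SLC26A8 differed by 0.37 (SE 0.17, limma unadjusted p = 0.0473, exact permutation p = 0.0571), or 1.29 times the control level. In mated hens it lay at 8.85, 9.42, 9.26 and 9.32, a difference from control of 0.05 (SE 0.17). The call on SLC26A8 was lost when control replicate 1, 2 or 3, mated replicate 3 or 4, or SF replicate 2, 3 or 4 was left out, and with renewed quantile normalisation, fits of the 2 groups, trended and robust priors, array weights (0.28) or the tissue score (0.30). Of 7 testis and sperm markers 3 were above the random control on all 12 arrays and SPACA1 was at or below it on all. Their score spanned -0.09 to 0.24 in mated, -0.11 to 0.21 in SF and -0.24 to 0.05 in control hens. In SF-infusion versus control 2 of the 7 were higher at an unadjusted p under 0.05, where 4.15% of all features were. In mating versus control 1 was higher and 0 were lower, where 2.22% of all features passed in either direction. In mating versus SF-infusion 0 were higher and 1 was lower, where 4.7% of all features passed in either direction. The part of such transcripts in the SLC26A8 difference was not tested.

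Among the 7 cation-chloride cotransporters 0 passed in any comparison. SLC12A3, the thiazide-sensitive sodium-chloride cotransporter, was the only carrier of the 53 whose groups did not overlap in a comparison, namely mating versus SF-infusion, where 3.04% of all features did not overlap and 1.54% were apart and higher in mated hens. It lay at 6.42, 6.66, 7.25 and 6.44 in mated hens, against 6.39, 6.41, 6.35 and 6.29 in SF hens. Mated replicate 3 stood well above the others, while the lowest mated hen was only just above the highest SF hen. The exact permutation p of 0.0286 follows from this separation, for which SLC12A3 was named, and adds nothing to it. The difference of SLC12A3 was 0.33 (SE 0.17, limma unadjusted p = 0.0765), and it passed in limma when mated replicate 1 or 4 was left out. Against controls at 6.55, 6.46, 6.28 and 6.26 the mated hens differed by 0.30 (SE 0.17) and the groups overlapped. The groups of 0 carriers were apart in mating versus control (1.34% of all features) and in SF-infusion versus control (3.84% of all features).

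**Figure D2:**
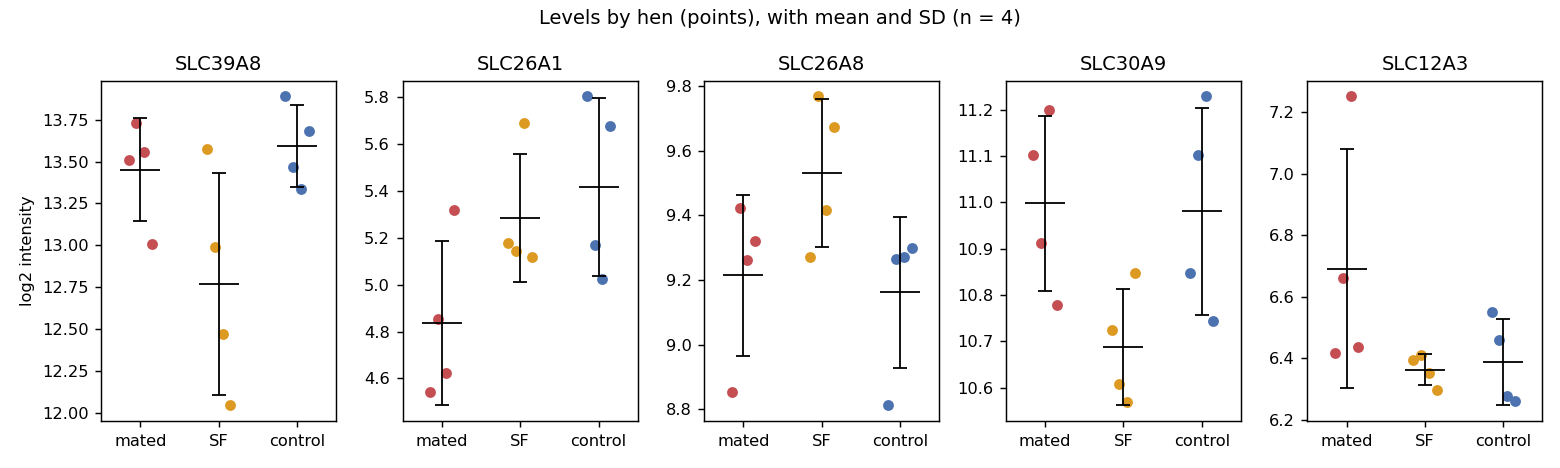
Log2 intensity of the 5 carriers that passed an unadjusted p of 0.05 or had separate groups in a comparison, with a point per hen and the mean and SD of each group of 4, in mated, SF and control hens. SLC39A8 was lower in SF replicates 2, 3 and 4 than in all controls, and the highest point of SLC12A3 is mated replicate 3 at 7.25.

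The calcium exchangers showed 0 calls. The 7 genes had differences from control of -0.40 to 0.22 after mating and of -0.29 to 0.21 after SF-infusion. SLC8A1, the sodium-calcium exchanger of the plasma membrane, lay at 9.63, 9.80, 8.94 and 10.50 in mated hens, at 9.32, 10.36, 9.79 and 9.04 in SF hens and at 9.78, 9.16, 9.15 and 9.91 in control hens. All groups overlapped widely, and the difference of 0.22 (SE 0.36) in mated hens was within the hen-to-hen spread. SLC24A2, a potassium-dependent exchanger known from neurons and cone cells, differed by -0.61 (SE 0.40, limma unadjusted p = 0.156) between mated and SF hens, and passed when SF replicate 1 was left out.

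The sodium-proton exchangers likewise had 0 calls among 9 genes, and their largest differences belonged to SLC9A2 and SLC9A4, which sit in the membrane of epithelial cells. SLC9A8, an exchanger of the Golgi and endosomes, varied little, with an SD of 0.125 over the 12 hens.

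A marked spread between hens set some of these carriers apart from others. The SD over the 12 hens was above 1 for 8 of 53 carriers (15.1%), where 4.26% of all features reached that, and under 0.3 for 23 carriers (43.4%), where 56.3% of all features were so steady. The 8 were SLC13A5, SLC9A2, SLC26A4, SLC26A9, SLC13A1, SLC9A4, SLC34A2 and SLC13A2, with SDs between 1.01 and 3.04. For SLC9A4 this holds for the brightest feature only (SD 1.36), its other features having SDs of 0.46 and 0.74. In SF-infusion versus control these dimmer features of SLC9A4 differed by -0.46 and -0.45, against -1.23 for the brightest.

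SLC13A5, the citrate carrier of the plasma membrane, had the largest spread, and only 0.0348% of all features varied more. It lay at 11.92, 11.81, 14.03 and 6.57 in mated hens, at 13.27, 5.05, 7.87 and 11.03 in SF hens and at 11.92, 14.15, 13.76 and 12.68 in control hens. SF replicates 2 and 3 and mated replicate 4 stood far below the other 9 hens, which lay between 11.03 and 14.15. SLC13A5 in SF hens differed from control by -3.82 (SE 1.82, limma unadjusted p = 0.0594) and in mated hens by -2.04 (SE 1.82, limma unadjusted p = 0.284). The difference in SF hens passed when mated replicate 4 or SF replicate 1 was left out, in fits of the 2 groups and with array weights. It was 0.05 with the tissue score in the model.

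SLC9A2, a sodium-proton exchanger of epithelial membranes, followed SLC13A5 hen by hen. It lay at 12.94, 12.68, 13.98 and 9.9995 in mated hens, at 13.19, 8.75, 10.72 and 12.34 in SF hens and at 13.13, 13.65, 13.94 and 12.84 in control hens. The same 3 hens were the lowest. In SF hens SLC9A2 differed from control by -2.14 (SE 0.98, limma unadjusted p = 0.0514) and in mated hens by -0.99 (SE 0.98). The difference in SF hens passed when mated replicate 3 or 4 or SF replicate 1 or 4 was left out. It also passed in fits of the 2 groups, with trended and robust priors and with array weights. With the tissue score in the model it was -0.07.

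The tie between SLC9A2 and SLC13A5 did not rest on the 3 low hens alone. With every feature fitted by limma on the level of SLC13A5, SLC9A2 had a slope of 0.54 per log2 unit (SE 0.02, adjusted p = 1.35e-06 over 37373 features). With a term for each group, where 6.99% of all features passed, the slope was 0.53 (adjusted p = 0.000223), and over the other 9 hens it was 0.46 (adjusted p = 0.0219). In the fit of all 12 hens 11 of 52 other carriers passed (16.6% of all features did). With group terms 6 of the 52 passed (11.5%), SLC9A2, SLC13A2, SLC9A4, SLC20A2, SLC8A1 and SLC34A2. Over the 9 hens 3 passed (5.77%), SLC9A2, SLC26A9 and SLC9A9, where 2.7% of all features did. Only SLC9A2 passed in all 3 fits. The phosphate carrier SLC34A2 had a positive slope of 0.37 over all hens (adjusted p = 0.00519) and a slope of -0.22 over the 9 hens (adjusted p = 0.159), so that its relation to SLC13A5 was carried by the 3 low hens.

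SLC34A2, the epithelial sodium-phosphate cotransporter known from intestine and lung, lay at 13.85, 13.90, 13.19 and 11.52 in mated hens, at 13.69, 9.80, 12.19 and 14.00 in SF hens and at 14.20, 13.88, 13.10 and 13.93 in control hens. Apart from the same 3 hens it stayed between 13.10 and 14.20. SF hens differed from control by -1.36 (SE 0.84, limma unadjusted p = 0.134), which passed when SF replicate 4 was left out. SLC20A2, the other phosphate carrier, is widely expressed in mammals, and it differed by -0.26 (SE 0.27) in mated hens and by -0.42 (SE 0.27) in SF hens.

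SLC26A4 (pendrin), which exchanges chloride for bicarbonate and iodide, had another pattern. It lay at 11.29, 9.70, 6.41 and 8.81 in mated hens, at 10.23, 9.96, 9.90 and 11.56 in SF hens and at 10.62, 9.77, 7.16 and 10.04 in control hens. Mated replicate 3 and control replicate 3 were the lowest. Of the 3 hens low in SLC13A5, mated replicate 4 came next at 8.81, while SF replicates 2 and 3 lay at 9.96 and 9.90. The SF hens differed from the control hens by 1.01 (SE 0.99) and the mated hens from the SF hens by -1.36 (SE 0.99, limma unadjusted p = 0.197), the last of which passed when mated replicate 1 was left out.

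Mated replicate 3 and control replicate 3, the lowest in SLC26A4, were the highest in SLC26A9, a chloride carrier of epithelia. Mated replicate 4, the next lowest in SLC26A4, was not high in SLC26A9, and no relation between these carriers was fitted. SLC26A9 lay at 6.68, 6.24, 9.47 and 6.16 in mated hens, at 7.87, 6.28, 6.68 and 5.86 in SF hens and at 6.70, 8.51, 10.34 and 6.14 in control hens. Control replicate 3, mated replicate 3 and control replicate 2 were its 3 highest hens. SLC9A4, at 7.23, 6.18, 9.19 and 5.28 in mated, 7.38, 4.92, 6.78 and 7.07 in SF and 7.01, 8.29, 9.32 and 6.44 in control hens, was highest in the same 3 hens.

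SLC13A2, a carrier of dicarboxylates such as succinate, and SLC13A1, a sulphate carrier, completed the 8. SLC13A2 lay at 10.16, 10.01, 11.72 and 9.30 in mated, 11.03, 8.09, 9.71 and 10.72 in SF and 10.83, 11.03, 11.34 and 9.90 in control hens. SLC13A1 lay at 6.79, 6.37, 4.02 and 3.59 in mated, 6.19, 3.37, 3.55 and 4.76 in SF and 4.93, 7.10, 6.61 and 5.30 in control hens, and its 3 lowest values, in the hens low in SLC13A5, did not exceed the random control. Of the 8 carriers all but SLC26A4 had negative differences in SF hens, between -0.89 and -3.82, and 0 passed, though SLC13A1 did when SF replicate 1 was left out.

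**Figure D3:**
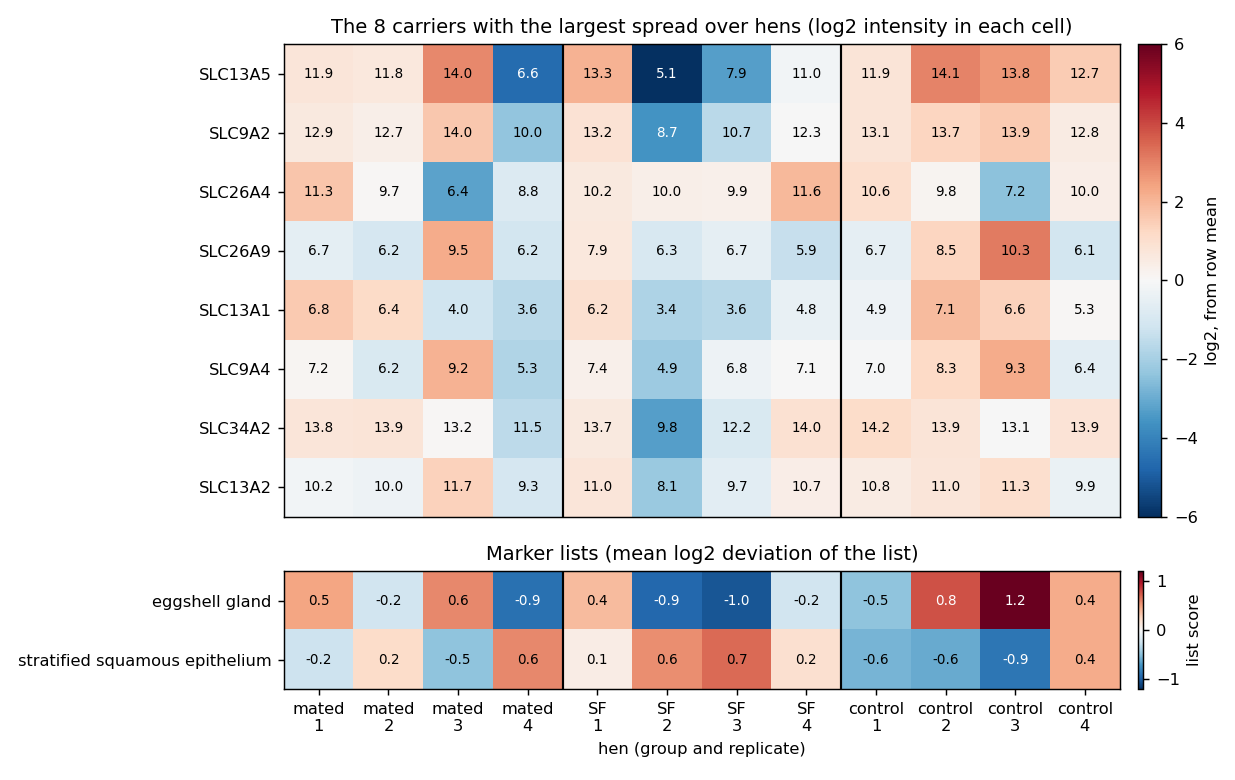
The 8 carriers with the largest SD over the 12 hens (rows, log2 intensity printed in each cell, colour for the deviation from the row mean) and the scores of both epithelial marker lists below, with hens in columns by group and replicate. SF replicates 2 and 3 and mated replicate 4 are low in SLC13A5 and SLC9A2 and have the lowest eggshell gland scores, between -1.03 and -0.90.

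How far the carriers followed the eggshell gland markers was asked by fitting every feature on the score of that list. The list as drawn up holds ion-transport genes itself, such as SLC4A4, SLC4A9, ATP2B1 and CLCN5. Whether a slope reflects the make-up of the tissue or regulation shared by such genes was not tested. Over the 12 hens 12 of 53 carriers passed at an adjusted p under 0.05 (22.6%), 9 with a positive and 3 with a negative slope, where 11.2% of all features passed, 5.98% positive and 5.23% negative. SLC13A5, SLC9A2, SLC9A4, SLC13A1, SLC13A2, SLC26A9, SLC20A2, SLC30A9 and SLC39A13 had positive slopes, and SLC8A1 and SLC12A2 were among those with negative slopes. SLC13A5 rose by 3.62 log2 units per unit of the score (SE 0.57, adjusted p = 0.00702) and SLC9A2 by 1.90 (SE 0.34, adjusted p = 0.0111). SLC12A2 (NKCC1), which loads epithelial cells with chloride, had a slope of -0.65 (SE 0.15, adjusted p = 0.0249). SLC39A8 and SLC26A4 did not pass.

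The calls were lost when the hens were compared within groups, at slopes of the same sign. With a term for each group 0 of 53 carriers passed (0.789% of all features did), while SLC13A5 had a slope of 3.43 (adjusted p = 0.0581), SLC9A2 one of 1.75 (adjusted p = 0.0736), SLC9A4 one of 1.56 (adjusted p = 0.0773) and SLC8A1 one of -0.63 (adjusted p = 0.0760). Without SF replicates 2 and 3 and mated replicate 4, 0 carriers passed and 0.0107% of all features did, the slopes being 1.67 for SLC13A5, 0.76 for SLC9A2 and 1.53 for SLC9A4. SLC34A2 had a slope of 1.03 over 12 hens (adjusted p = 0.127) and of -0.52 over the 9 hens (adjusted p = 0.198).

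The squamous epithelium score gave the reverse signs. Over 12 hens 13 carriers passed, 10 with a negative and 3 with a positive slope, where 14.9% of all features passed, 7.48% positive and 7.38% negative. SLC20A2 had a slope of -0.71 (SE 0.10, adjusted p = 0.00222) and SLC12A2 one of 0.96 (SE 0.18, adjusted p = 0.00837). With group terms 5 carriers passed, SLC20A2, SLC30A9, SLC9A4 and SLC12A2 among them, where 5.26% of all features did. Without the 3 hens 0 passed, where 0.246% of all features did.

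**Figure D4:**
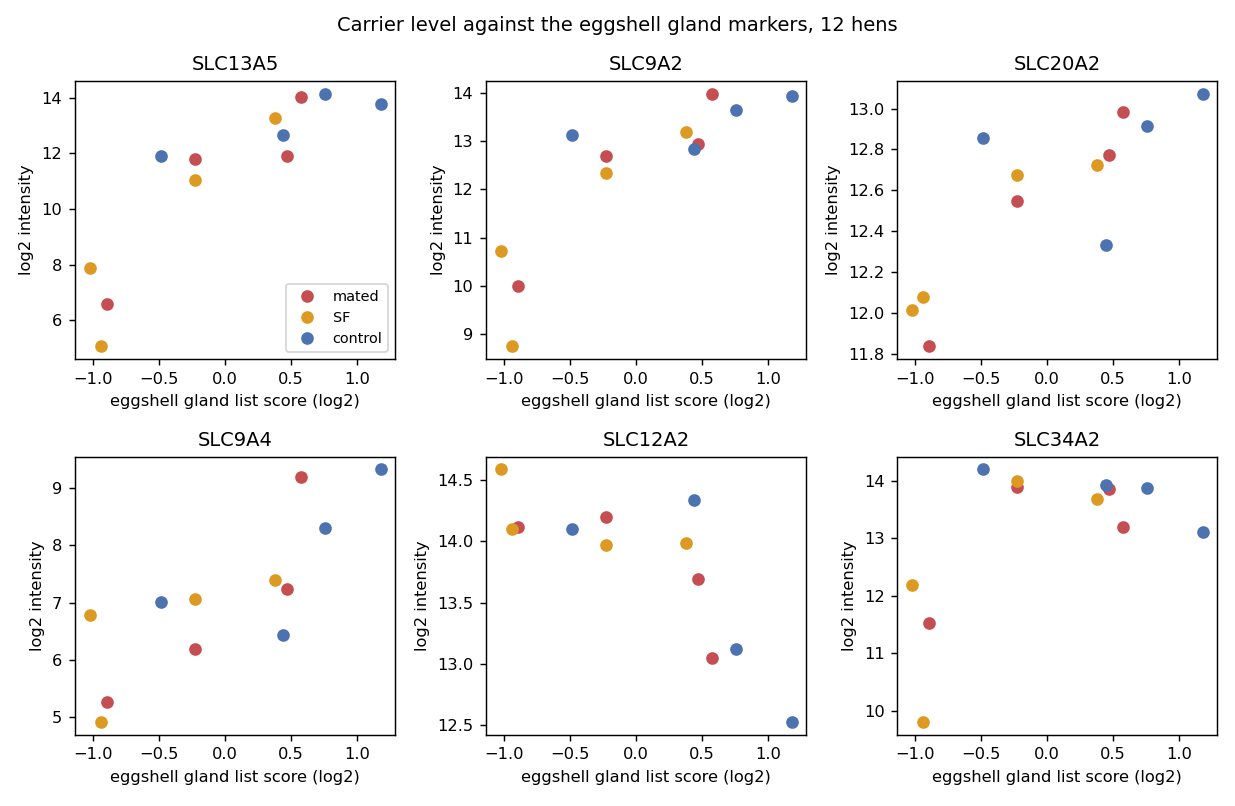
Log2 intensity of 6 carriers against the eggshell gland score of the same hen, a point per hen, coloured by group. SLC13A5, SLC9A2, SLC20A2 and SLC9A4 were higher in hens with a higher score and SLC12A2 lower, while SLC34A2 was lowest in the 3 hens at the left.

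Few genes that act with these carriers differed. Of 39 measured partners, regulators and other metal or anion proteins 0 passed an unadjusted p of 0.05 in mating versus control and 0 in mating versus SF-infusion. In SF-infusion versus control 3 were lower and 0 higher, against 2.32% and 4.15% of all features. CHP1, a calcium-binding partner that sodium-proton exchangers need, lay at 12.54, 12.57, 12.00 and 12.49 in SF hens, against 12.81, 12.94, 13.11 and 12.63 in control hens. All SF hens were below all controls, where 3.84% of all features did not overlap in either direction. The exact permutation p of 0.0286 follows from that separation and adds nothing to it. CHP1 differed by -0.47 (SE 0.21, limma unadjusted p = 0.0484). The call was lost without control replicate 1, 2 or 3, mated replicate 1 or 2, or SF replicate 1, 3 or 4.

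STC2, a secreted stanniocalcin tied to calcium and phosphate balance, lay at 8.86, 8.04, 7.33 and 8.15 in SF hens, against 9.14, 10.12, 11.74 and 8.66 in control hens. The difference was -1.82 (SE 0.78, limma unadjusted p = 0.0406, exact permutation p = 0.0571), lost without control replicate 2 or 3, mated replicate 1 or 2, or SF replicate 2, 3 or 4. SLC41A2, a magnesium carrier, lay at 9.45, 8.37, 8.44 and 9.27 in SF hens, against 9.36, 10.58, 11.13 and 9.30 in control hens. It differed by -1.21 (SE 0.45, limma unadjusted p = 0.0217, exact permutation p = 0.114), lost without control replicate 2 or 3 or SF replicate 2 or 3. Control replicates 2 and 3, the highest of the control hens in STC2 and SLC41A2, also had the highest eggshell gland scores of all hens. Mated replicate 3 lay at 10.57 in STC2, above control replicate 2, and at 10.32 in SLC41A2. With the tissue score in the model CHP1 (-0.050), STC2 (0.0024) and SLC41A2 (-0.19) did not pass, nor did CHP1 after median centring. The part of the tissue in these differences was not tested beyond that fit, which cannot tell tissue from treatment. The lists of regulators of the cation-chloride carriers (8 genes, among them the WNK kinases) and of anion channels and sulphate activation (6 genes) held 0 calls.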

How the data were processed

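Each of 12 arrays held the UVJ RNA of 1 hen. The authors deposited linear intensity values after robust multichip averaging (RMA), which adjusts background, equalises the distributions of the arrays and joins the probes of each feature into a single value. RMA and limma are the tools listed in the submitters' processing notes. The genome build is not given in the sources used here. The log2 of the intensity was taken with no pseudocount. A mean per group was fitted over all 12 arrays in limma 3.58.1 (R 4.3.3) with empirical Bayes moderation, with Benjamini-Hochberg adjustment over 37374 features. Features at an unadjusted p under 0.05, a level taken as suggestive in the study, were counted too. Tests were two-sided. Slopes on marker scores or on SLC13A5 were fitted over all features in the same way. The code was tested on simulated data. Named carriers were those past the unadjusted threshold or with separate groups, the smallest p of each family and the 8 largest SDs, and partner genes past the threshold. The carriers and gene lists were chosen with earlier results of these data known, and the slope fits after seeing the data. Alternatives were median centring, renewed quantile normalisation, the table of the whole series, a filter on dim features (25th percentile), a pseudocount of 16, fits of 2 groups, the replicate number as a block, trended and robust priors, array weights, a tissue score, the median of a symbol's features, an exact permutation test and leaving out each array. P-values set the differences and slopes against the spread between these hens, which does not separate position on the slide from treatment. Some results on single carriers are not reported here.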

Additional observations from a re-analysis of the deposited data

Results flagged for a closer look

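In 3 of 48 groups of 4 hens tested among the 16 named carriers a hen stood apart from the rest of her group, a rate near the 1 in 20 that chance gives. SLC26A1 in SF replicate 3 was at 5.69, against 5.12 to 5.18 in the other SF hens. SLC26A8 in control replicate 1 was at 8.81, against 9.26 to 9.30 in the other controls. SLC26A9 in mated replicate 3 was at 9.47, against 6.16 to 6.68 in the other mated hens.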

How the results depend on the processing

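With 4 hens per group and 1 slide, differences of dim or variable carriers are poorly determined, and the counts below shift with single arrays. The count of carriers past an unadjusted p of 0.05 in mating versus control was 1, and 0 with the filter on dim features (36 of 53 carriers and 28030 features kept, SLC26A1 not among them), 2 with array weights and 2 with the tissue score, and 0 to 2 with an array left out. In SF-infusion versus control it was 2, and 7 with array weights, 5 with the tissue score and 1 to 5 with an array left out. The 5 with the tissue score did not include SLC26A8 or SLC39A8. The count of all features in that setting is not given here, so the 5 cannot be set against the whole array. In mating versus SF-infusion it was 2, and 1 in fits of the 2 groups, 4 with array weights and 0 to 4 with an array left out. Over all features the counts were 828, 2417 and 1756. They were 391, 1597 and 728 with the dim filter and 1862, 4064 and 2817 with array weights, and mating versus control gave 1286 with the tissue score. Leaving out an array gave 589 to 2108 features in mating versus control (2108 without mated replicate 3), 1502 to 3505 in SF-infusion versus control (1502 without SF replicate 3) and 1256 to 2537 in mating versus SF-infusion. The 12 carriers with a slope on the eggshell gland score became 0 with group terms and 0 without the 3 hens. With the tissue score in the model the sign turned for SLC8A1 after mating (-0.20) and, in SF-infusion versus control, for SLC13A5 (0.0501), SLC20A2 (0.18), SLC26A9 (0.68), SLC9A4 (0.76), SLC13A2 (0.44) and STC2 (0.0024). With an array left out SLC8A1 ranged between -0.042 (without mated replicate 4) and 0.48 (without mated replicate 3). The cause was not tested. Same-numbered hens did not deviate together throughout (4 of 12 pairs correlated above 0.1, the range being -0.36 to 0.62). Control and mated replicate 3 correlated at 0.62 and control and mated replicate 4 at 0.51. Hens of different numbers reached 0.53 (mated replicate 4 and SF replicate 2). These values do not settle whether the numbers pair the hens. With the replicate number as a block the counts of carriers were 1, 3 and 2 and those of features 940, 2649 and 1827. SLC30A9 in mating versus SF-infusion (unadjusted p = 0.0635, limma) and CHP1 in SF-infusion versus control (unadjusted p = 0.0626, limma) stopped passing with that block.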
